A study of Homo sapiens with 4 samples.

Results

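Solute carriers (SLC) are membrane proteins that move amino acids, sugars, nucleosides, vitamins, metals, phosphate and organic ions. They act at the plasma membrane or at membranes inside the cell, for most of the SLC25 family the inner mitochondrial membrane. The SLC genes were taken as every gene with a protein-coding row whose symbol begins with SLC, a family number, the letter A and a member number. SLC7A11, SLC30A1 and SLC2A1 were excepted. This rule uses no measured value and gave 178 genes with 358 protein-coding transcripts, of 12120 genes with 26348 protein-coding transcripts in the deposited table. By family number, 24 genes fell into the amino acid group, 23 into the metal group, 38 into the mitochondrial SLC25 group, 3 into the nucleoside group and 90 into the group of others. The rule also took in 5 symbols that name no carrier, namely the scaffold proteins SLC9A3R1 and SLC9A3R2, SLC7A6OS, SLC2A4RG and SLC4A1AP, so that 173 genes encode a carrier or a carrier's heavy chain.

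The RNA came from the established triple-negative breast cancer line MDA-MB-231, of human origin, treated for 24 h with 10 µM KH-3 or with DMSO, the solvent control. The compound KH-3 inhibits the RNA-binding protein HuR, and each condition had 2 libraries. Both conditions used unmodified cells of the 1 line in culture medium with serum, so the values describe this line only. The deposited table gives, for each transcript, a mean normalized read count pooled over libraries, a log2 fold change between KH-3 and DMSO (positive where KH-3 was higher), and a p-value and q-value from DESeq2.

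No value per library was in the table, so the sequencing depth of a library is unknown, the spread between replicates is seen only through the p-value, and it cannot be shown whether the samples of the 2 conditions overlapped. The error given after ± is an implied standard error (SE), found by dividing the log2 fold change by the normal z that its p-value corresponds to. The marker genes VIM, CD44 and AXL of this mesenchymal line were listed at 3786, 427 and 2814 mean normalized reads per kilobase of transcript (per kb below), and SPARC at 84.0. The hormone receptor genes ESR1 and PGR, the leukocyte gene PTPRC and the hepatocyte gene ALB had no row. The luminal genes ERBB3 and GATA3 were listed at 34.4 and 29.5 per kb, and the endothelial gene PECAM1 at 4.08 per kb.

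Amino acid carriers set how much leucine, glutamine, serine or cystine a cell takes up, and several of them are known targets of the transcription factor ATF4, which is made when amino acids are scarce. Mitochondrial carriers share one fold and pass nucleotides, phosphate, citrate, aspartate and cofactors between cytosol and matrix. Zinc and iron carriers fall into importers (SLC39) and exporters (SLC30, and ferroportin SLC40A1). MDA-MB-231 cells are known for a high use of glucose and glutamine. Lactate is carried by members of the SLC16 family and glutamine by a member of the SLC1 family.

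With KH-3, 20 SLC genes had only transcripts that rose, 20 had only transcripts that fell, and 1, SLC4A2, had a transcript of each kind, at a DESeq2 q-value under 0.05 for at least 1 protein-coding transcript. These 41 genes were 23.0% of the SLC genes, beside 29.3% of all genes called by the same rule (12.5% only higher, 16.5% only lower and 0.264% both ways). The difference between these shares was not tested. Of the 358 transcripts, 22 rose and 23 fell, together 12.6%, beside 16.0% of all protein-coding transcripts (6.75% higher and 9.26% lower). The median log2 fold change over the genes, each taken from its transcript with the smallest implied SE (the representative transcript), was -0.04 for the SLC genes and -0.04 for all genes. A representative value above 0 was found in 47.8% of the SLC genes and in 47.9% of all genes. The transporters as a body thus had the same median as the table, and of the larger groups the SLC25 family alone had a median more than 0.1 from 0, as the plot by subfamily group shows.

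**Figure D1:**
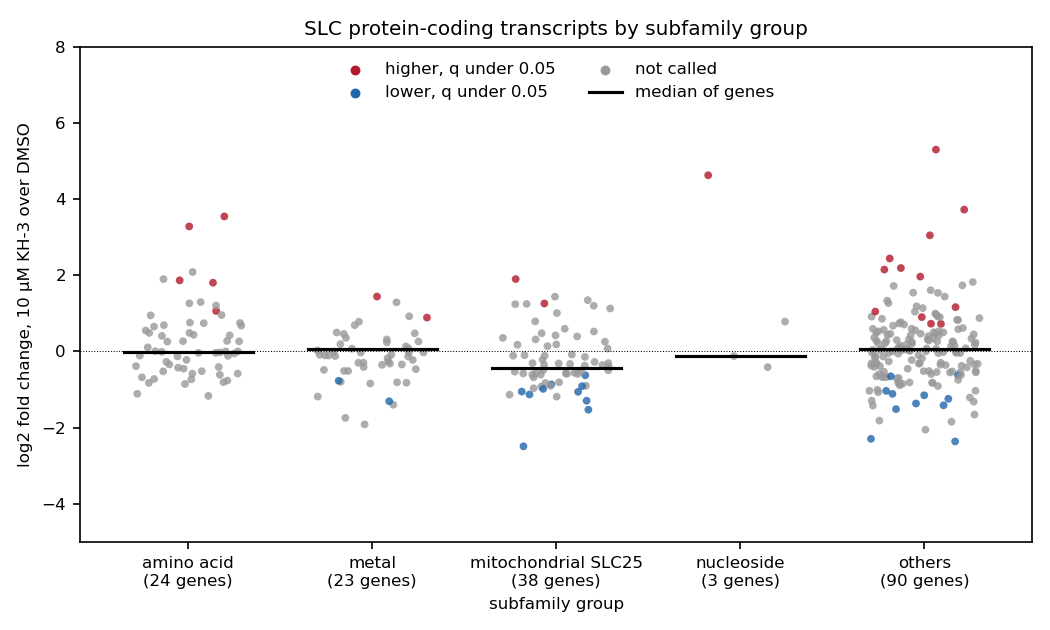
Log2 fold change (10 µM KH-3 over DMSO) of each of the 358 SLC protein-coding transcripts, by subfamily group, in red where it rose, in blue where it fell (q under 0.05) and in grey otherwise, with a black line at the median of the group's genes. The mitochondrial SLC25 group has its median at -0.43, while the medians of the amino acid, metal and other groups lie between -0.02 and 0.07.

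How many reads a transcript had set what could be called. The SLC transcripts had mean normalized read counts from 7.37 to 6594 with a median of 82.8, and the median implied SE of the genes' representative transcripts was 0.38 on the log2 scale. At that SE a log2 fold change of about 1.04 was needed to be called, so smaller changes of a typical representative transcript were not detectable. When all genes were split into terciles by mean normalized read count, 11 of 67 SLC genes were called in the lowest tercile (16.4%, all genes 16.6%). In the middle tercile 16 of 66 were called (24.2%, all genes 25.9%). In the highest tercile 14 of 45 were called (31.1%), beside 45.3% of all genes. The shares were close in the lower terciles and apart in the highest, which also held the fewest SLC genes. In the highest tercile, 11 SLC genes fell, 2 rose and 1 did both, while 33.8% of all genes of that tercile fell and 11.0% rose. The lowest tercile was the reverse, with 10 SLC genes that rose and 1 that fell (all genes 13.6% and 2.95%). In the middle tercile 8 rose and 8 fell (all genes 12.9% and 12.8%). Direction thus went with read count, in the SLC genes as in all genes.

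**Figure D2:**
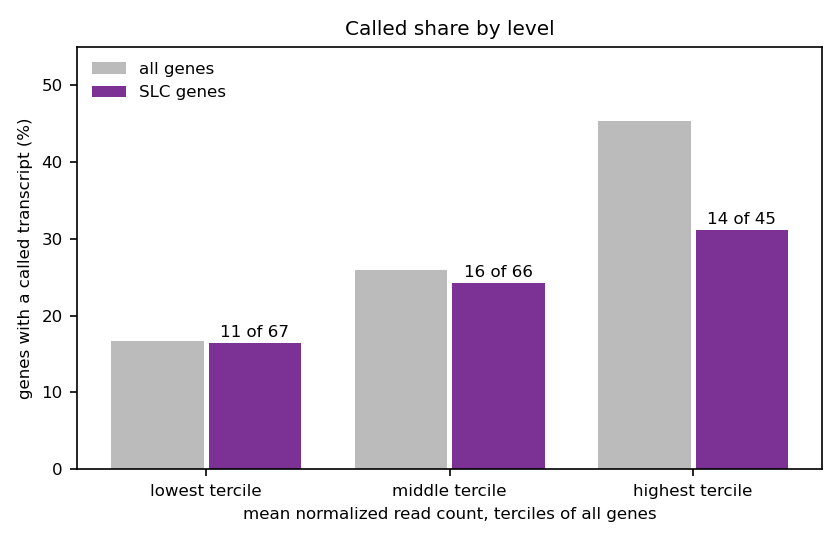
Share of genes with a called protein-coding transcript (vertical axis, %), for all genes in grey and SLC genes in purple, in terciles of all genes by mean normalized read count (horizontal axis), with the number of SLC genes called above each purple bar. The bars are alike in the lowest and middle terciles and stand at 45.3% and 31.1% in the highest tercile.

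Levels were compared per kb, summed over the listed protein-coding transcripts of a gene. SLC25A5 (ANT2), which exchanges ADP for ATP across the inner mitochondrial membrane, stood first of the 178 at 3782 per kb. SLC7A5 (LAT1), the exchanger of leucine and other large neutral amino acids, followed at 1636 per kb and SLC1A5 (ASCT2), the glutamine carrier, at 1635 per kb. The zinc carrier SLC39A7 of the endoplasmic reticulum had 1483 per kb and the neutral amino acid carrier SLC38A2 (SNAT2) 1080 per kb. The 10 genes with the highest levels held 39.4% of the summed level of all SLC genes. These levels have no replicate error, and they are incomplete for 35 genes whose MANE Select transcript (the reference transcript agreed between Ensembl and RefSeq) had no row, among them SLC3A2, SLC16A3, SLC25A3, SLC29A1, SLC29A4 and SLC39A1. The fold changes given for these 35 genes likewise come from other transcripts.

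**Figure D3:**
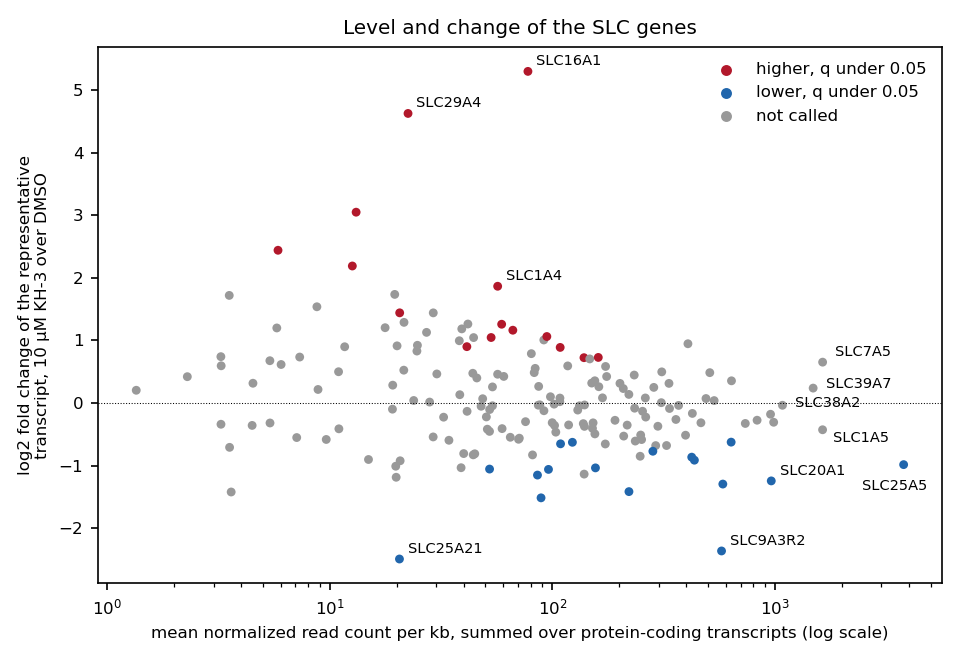
Each SLC gene by its level (horizontal axis, mean normalized read count per kb, log scale) and the log2 fold change of its representative transcript (vertical axis, 10 µM KH-3 over DMSO), coloured by the call of that transcript. Of the 5 genes with the highest levels SLC25A5 fell, and the largest increase, that of SLC16A1, belongs to a gene at a pooled 77.6 per kb.

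In the amino acid group, 5 of 24 genes had a transcript that rose (20.8%, all genes 12.5%) and none had one that fell (all genes 16.5%). The group was set by family number, so not all its genes carry amino acids. It includes SLC7A6OS, which names no carrier, and the creatine carrier SLC6A8, which is among the 5. SLC1A4 (ASCT1), a carrier of alanine, serine and cysteine at chr2:64988477-65023865 (hg38, plus strand), had 1 protein-coding transcript, with a log2 fold change of 1.87 ± 0.29 (3.65-fold, 95% interval 2.46 to 5.41, DESeq2 q = 9.21e-09). SLC36A1 (PAT1), a proton-coupled carrier of small amino acids found on lysosomes, rose by a log2 fold change of 1.06 ± 0.26 (q = 0.000745). In the other 3 genes the call rested on 1 isoform and did not extend to the isoform with the most reads.

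SLC1A5 lies at chr19:46774883-46788594 (hg38, minus strand) and had 4 protein-coding transcripts. Shares of a gene's reads, here and below, are shares of the reads of its listed protein-coding transcripts. Isoform SLC1A5-003, whose 5′ end at position 46784905 lies inside the gene, held 13.8% of the gene's reads. It rose 11.7-fold (log2 fold change 3.55 ± 0.43, DESeq2 q = 3.60e-14). The main isoform SLC1A5-001, which starts at position 46788594 and held 72.8% of the reads, had a log2 fold change of -0.43 ± 0.20 with q = 0.176. The other two isoforms stood at 0.44 ± 0.78 and -0.39 ± 0.79. Weighted by reads, the 4 transcripts gave a log2 fold change of 0.21, so the 11.7-fold rise concerns the short isoform. Isoforms share most of their sequence, and the split of their reads was an estimate made before deposit.

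SLC3A2 (CD98, 4F2hc) is the heavy chain that carries SLC7A5 and related exchangers to the cell surface. All 7 of its protein-coding transcripts had a positive log2 fold change, from 0.55 to 2.09. Of these, SLC3A2-007 passed the threshold at 1.81 ± 0.52 (q = 0.00669) with 18.6% of the reads, while SLC3A2-001, with 47.6% of the reads, stood at 0.95 ± 0.38 with q = 0.0898. Its partner SLC7A5 had 2 transcripts of nearly equal share, at 0.95 ± 0.38 (q = 0.0788) and 0.65 ± 0.34 (q = 0.244), neither of which was called. SLC6A8, the creatine carrier, rose in the minor isoform SLC6A8-005 (3.28 ± 0.80, q = 0.000799, 14.6% of reads), and its main isoform stood at 1.26 ± 0.55 with q = 0.123.

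SLC38A2 showed a different split, between coding and non-coding transcripts. Its main coding transcript, with 4827 mean normalized reads, had a log2 fold change of -0.04 ± 0.15 (q = 0.947). A transcript of the gene annotated for nonsense-mediated decay, with 2634 mean normalized reads, rose by 1.47 ± 0.22 (q = 2.43e-09), and a processed transcript with 71.5 reads by 4.56 ± 0.66 (q = 4.32e-10). The level of the coding mRNA therefore did not move beyond its error while annotated non-coding forms of the same gene rose. Across the SLC genes, 181 rows of 92 genes were of such other types, of which 5 rose and 9 fell (7.73%, beside 8.06% of all rows of these types, 4.71% higher and 3.35% lower). For SLC7A6, of the same family as SLC7A5, a retained intron transcript fell by 1.31 ± 0.46 on the log2 scale (q = 0.0370), and its representative coding transcript had -0.68 ± 0.26 with q = 0.0648.

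Of 10 amino acid carriers listed as linked to ATF4, 9 had a row. Their median log2 fold change was 0.49, beside -0.04 for all genes, and SLC1A4, SLC1A5 and SLC3A2 had a transcript that rose (33.3%, all genes 12.5%). None had one that fell (all genes 16.5%). Besides SLC7A5, the arginine and lysine carrier SLC7A1 (0.49 ± 0.22, q = 0.160) and the glycine carrier SLC6A9 (1.20 ± 0.65, q = 0.265) were positive without passing the test. SLC1A5, called through its short isoform, had the lowest representative value of the list, -0.43. SLC38A1, SLC38A2 and SLC43A1 had representative values from -0.41 to -0.04. Thus 5 representative values were positive and 4 negative, while the read-weighted value of SLC1A5 was 0.21. The list did not hold SLC7A11, which the rule leaves out, and whether it moved as a unit was not tested.

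ATF4 binds, with a partner, to a C/EBP-ATF response element, whose letters are TGATGNAAN. These letters were searched on both strands in RefSeq promoter windows of GRCh38.p14 (hg38), which reach from 250 bases before to 50 bases after a transcription start. Windows were at hand for 147 of the 178 genes. The element was found for 6 of 20 genes of the amino acid group (30.0%). It was found for 11 of 147 SLC genes (7.48%) and for 259 of 9487 genes of the table (2.73%). Of SLC genes that rose, 4 of 16 had it, as did 0 of 17 that fell and 7 of 113 that were not called. The 6 amino acid carriers are shown here because they hold most of the matches. Each line runs 5′ to 3′ on the gene's strand, and capitals mark the element, which reads as its reverse complement in SLC1A4 and SLC3A2.
SLC1A4, chr2:64989381-64989409, plus strand: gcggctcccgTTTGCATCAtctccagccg
SLC1A5, chr19:46784893-46784921, minus strand: aggaagtggcTGATGCAAGctgtccaggg
SLC3A2, chr11:62881725-62881748, plus strand: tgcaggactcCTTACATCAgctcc
SLC7A1, chr13:29595663-29595691, minus strand: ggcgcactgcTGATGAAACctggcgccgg
SLC38A1, chr12:46266502-46266530, minus strand: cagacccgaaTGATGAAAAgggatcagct
SLC1A3, chr5:36596358-36596386, plus strand: aggaaatgacTGATGCAAAgcagggttaa

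The first 3 of these genes had a transcript that rose, and SLC7A1, SLC38A1 and SLC1A3 did not. In SLC1A3 the stretch lies far 5′ of the starts of its 3 listed protein-coding transcripts, at positions 36606606, 36606630 and 36608146. In SLC1A5 the printed stretch spans position 46784905, the 5′ end of the isoform SLC1A5-003 that rose 11.7-fold, and not the start of the main isoform. In SLC3A2 the stretch lies just 3′ of the start of SLC3A2-012 at position 62881699, an isoform that was not called (q = 0.0666), and farther from the start of the called SLC3A2-007 at position 62880896. Outside this group, SLC17A7, which rose, and SLC11A2, SLC25A11, SLC39A11 and SLC9A9, which were not called, also held the letters. A match is a run of letters and not a measured binding site. The antioxidant response element TGACNNNGC was found for 21.8% of the SLC genes and 19.6% of all genes. In the amino acid group the share was 30.0% and in the metal group 33.3%. The metal response element TGCNCNC was found for 70.1% of the SLC genes and 70.4% of all genes, and for 61.9% of the metal carriers.

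**Figure D4:**
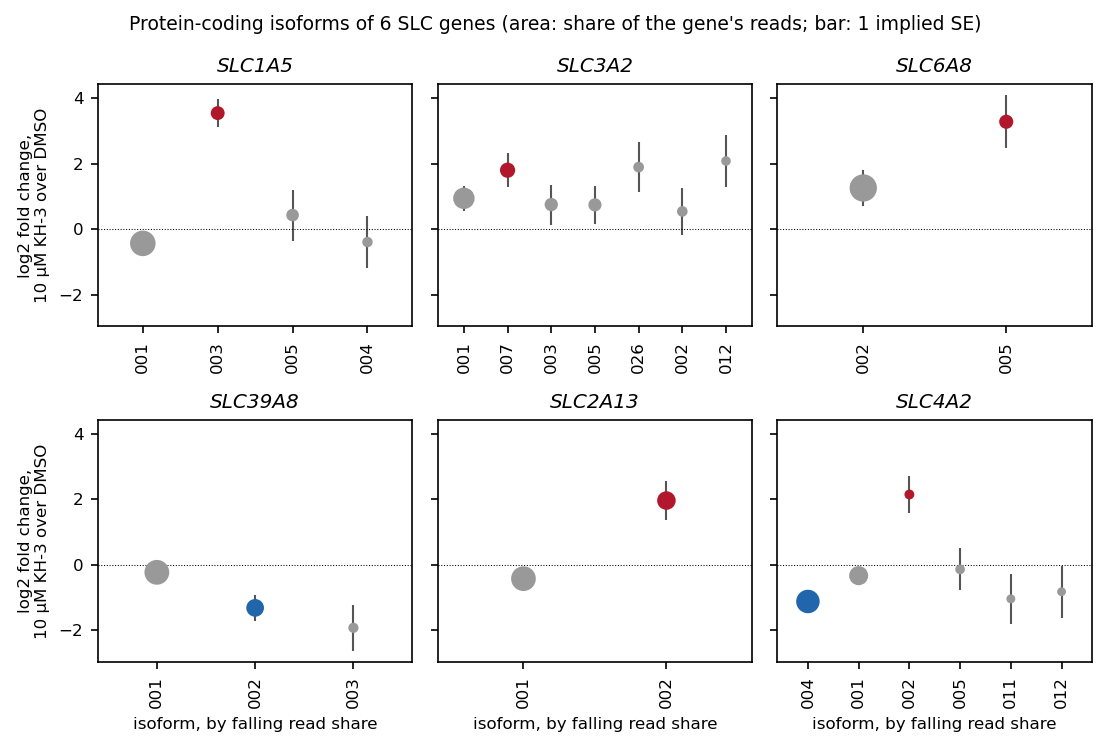
Log2 fold change (10 µM KH-3 over DMSO) of each protein-coding isoform of 6 SLC genes, in order of falling read share. Point area shows the share of the reads of the gene's listed protein-coding transcripts. Bars are 1 implied SE, and red or blue marks isoforms that rose or fell at q under 0.05. In SLC1A5, SLC3A2, SLC6A8, SLC2A13 and SLC39A8 the called isoform is not the one with the most reads, and in SLC4A2 called isoforms lie on both sides of 0.

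The mitochondrial SLC25 family was the group with the lowest median, at -0.43, and 28 of its 38 representative values were below 0. In 8 genes a transcript fell (21.1%, all genes 16.5%) and in 2 a transcript rose (5.26%, all genes 12.5%). SLC25A5, at chrX:119468422-119471396 (hg38, plus strand), and the most abundant transporter of the set, fell 1.98-fold (log2 fold change -0.99 ± 0.10, DESeq2 q = 3.41e-19). Its value had the smallest implied SE of all SLC genes. The other ADP/ATP exchangers were not called, with SLC25A6 (ANT3) at -0.31 ± 0.16 (q = 0.228) and the coding transcript of SLC25A4 (ANT1) at 0.26. A transcript of SLC25A4 annotated for nonsense-mediated decay rose by 0.70 ± 0.20 (q = 0.00643).

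Carriers of metabolites and cofactors made up most of the other decreases. SLC25A32, which brings folate and FAD into the matrix, fell by 0.91 ± 0.18 on the log2 scale (q = 2.16e-05). SLC25A21, the oxodicarboxylate carrier of lysine and tryptophan breakdown, had the lowest value of any SLC gene, -2.49 ± 0.52 (q = 4.53e-05), at a level of 20.5 per kb. The dicarboxylate carrier SLC25A10 stood at -1.06 ± 0.29 and the aspartate-glutamate carrier SLC25A13, part of the malate-aspartate shuttle, at -0.87 ± 0.30 (q = 0.00432 and 0.0352). SLC25A1, which exports citrate for fatty acid synthesis, fell in both of its isoforms (-1.13 ± 0.40 and -0.63 ± 0.22, q = 0.0379 and 0.0427). Of the 14 genes with a row in the list of metabolite carriers, these 5 fell (35.7%, all genes 16.5%), none rose (all genes 12.5%), 13 had a negative representative value, and the median was -0.62.

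Among 11 carriers of nucleotides and phosphate with a row, 3 fell (27.3%, all genes 16.5%) and the median was -0.36. Beside SLC25A5 they were SLC25A24, which exchanges ATP-Mg for phosphate, at -1.30 ± 0.35 in its main isoform and -1.53 ± 0.51 in a second (q = 0.00285 and 0.0250), and SLC25A33, a pyrimidine nucleotide carrier, at -1.06 ± 0.34 (q = 0.0174). The phosphate carrier SLC25A3 had -0.83 with q = 0.255, in a transcript other than its MANE Select transcript, which had no row. The 4 iron and glutathione carriers, SLC25A28, SLC25A37, SLC25A39 and SLC25A40, included no called gene (all genes 29.3%) and had a median of -0.45. The 2 genes with a transcript that rose were SLC25A27 (UCP4; 1.90 ± 0.66, q = 0.0348, in an isoform with 23.9% of reads) and SLC25A35 (1.26 ± 0.45, q = 0.0430), at 91.4 and 59.1 per kb.

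The share of SLC25 genes that fell went with the read count, as it did in the whole table. Of the 12 SLC25 genes in the highest tercile by read count 5 fell (all genes of that tercile 33.8%), of 16 in the middle tercile 2 fell (all genes 12.8%), and of 10 in the lowest tercile 1 fell and 2 rose (all genes 2.95% and 13.6%). Of 14 genes with a row that were listed as partners of carriers or as mitochondrial transport proteins outside the SLC symbols, 5 fell (35.7%, all genes 16.5%). They were the sideroflexins SFXN1 (-0.88 ± 0.17), a mitochondrial serine carrier, SFXN2 (-1.73 ± 0.45) and SFXN4 (-1.11 ± 0.36), and the outer membrane proteins MTCH1 (-0.71 ± 0.11) and MTCH2 (-0.83 ± 0.15). MPC2, a subunit of the mitochondrial pyruvate carrier, was the 1 partner that rose, at 0.65 ± 0.21, while MPC1 had -0.28 ± 0.40.

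**Figure D5:**
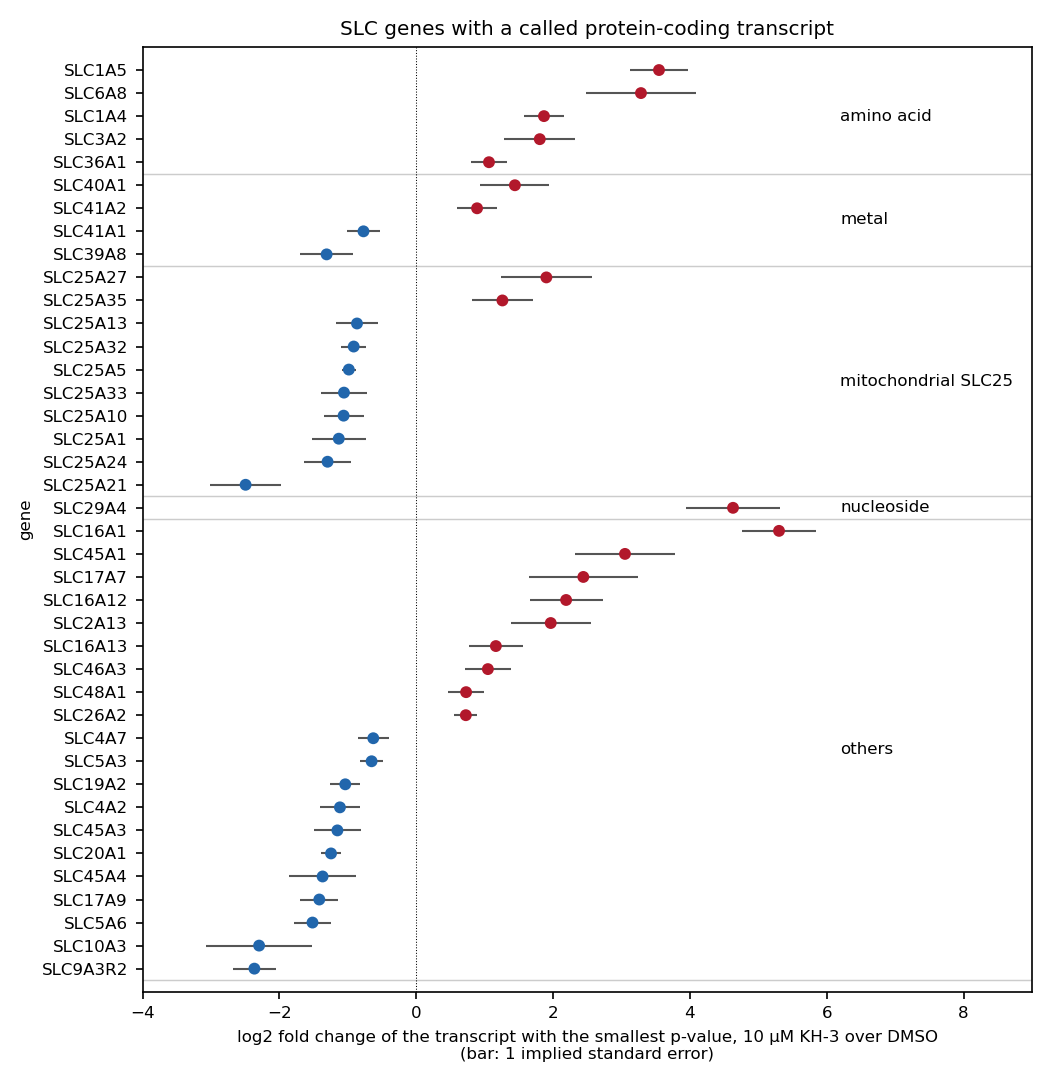
Log2 fold change (10 µM KH-3 over DMSO) of the transcript with the smallest p-value for the called SLC genes, by subfamily group and leaving out any gene not reported here, with bars of 1 implied SE, red for higher and blue for lower. All 5 genes of the amino acid group lie above 0, and 8 of 10 mitochondrial SLC25 genes lie below 0. SLC16A1 and SLC29A4 have the largest values at 5.30 and 4.63.

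Among the metal carriers, 2 of 23 genes had a transcript that rose and 2 one that fell (8.70% each, all genes 12.5% higher and 16.5% lower). Ferroportin SLC40A1, the iron exporter of the plasma membrane, rose 2.72-fold (log2 fold change 1.44 ± 0.50, DESeq2 q = 0.0356), with a pooled level of 20.6 per kb. The magnesium carriers moved apart, SLC41A2 rising (0.89 ± 0.29, q = 0.0231) and SLC41A1 falling (-0.77 ± 0.24, q = 0.0155). In SLC39A8 (ZIP8), an importer of zinc and manganese, isoform SLC39A8-002 fell (-1.31 ± 0.39, q = 0.00926, 28.9% of reads) while SLC39A8-001 with 67.8% of the reads had -0.22 ± 0.25.

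Zinc carriers were counted without SLC30A1, which the rule leaves out. Of 10 listed zinc importers with a row 1 was called, through the isoform of SLC39A8, and of 5 zinc exporters with a row none was (q of the representatives from 0.0609 to 0.864), beside 29.3% of all genes. The importers with the highest levels, SLC39A7, SLC39A6 (ZIP6) and SLC39A14 (ZIP14), had log2 fold changes of 0.24 ± 0.18, 0.36 ± 0.21 and 0.07 ± 0.15. SLC39A10 (ZIP10) came nearest to the threshold among the others, at -0.51 ± 0.19 with q = 0.0576. The exporters SLC30A4 (0.92 ± 0.35, q = 0.0609) and SLC30A5 (-0.51 ± 0.21, q = 0.0869) pointed in opposite directions. Copper importer SLC31A1 had 0.08 ± 0.22.

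Of the 3 equilibrative nucleoside carriers, SLC29A4 rose 24.8-fold in isoform SLC29A4-002 (log2 fold change 4.63 ± 0.69, 95% interval of the fold 9.73 to 63.0, DESeq2 q = 1.51e-09). SLC29A4 (PMAT), at chr7:5274369-5306912 (hg38, plus strand), carries monoamines and adenosine. It had a low level of 22.4 per kb, pooled over libraries, and its level in DMSO alone is unknown. Its second isoform stood at 0.78 ± 0.73 with q = 0.630. SLC29A1 (ENT1), the main nucleoside carrier of many cells, had -0.41 ± 0.65 (q = 0.825), known only from a transcript with 23.8 mean normalized reads. The lysosomal SLC29A3 had -0.12 ± 0.33 (q = 0.911). The 95% interval of SLC29A1 ran from 0.311-fold to 1.81-fold, so it held both falls and rises and the direction was not determined.

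Among the 90 other genes, 10 had a transcript that rose, 10 one that fell and 1 both (11.1% each way, all genes 12.5% higher and 16.5% lower). SLC16A1 (MCT1), the proton-coupled carrier of lactate and pyruvate, at chr1:112911847-112957593 (hg38, minus strand), had the largest increase of all SLC genes. Isoform SLC16A1-001, with 87.3% of the gene's reads, rose 39.5-fold (log2 fold change 5.30 ± 0.55, 95% interval of the fold 18.8 to 82.9, DESeq2 q = 1.27e-19). The second isoform, SLC16A1-005, rose by 3.73 ± 0.79 (q = 6.19e-05), so both transcripts of the gene moved together. SLC16A3 (MCT4), the lactate exporter of glycolytic cells, had -1.01 ± 0.44 with q = 0.120. This value came from its 1 listed protein-coding transcript, which is not its MANE Select transcript. BSG (basigin), the chaperone that brings SLC16A1 and SLC16A3 to the membrane, had 0.29 ± 0.80 from a minor transcript.

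Within the 9 genes of the SLC16 family, 3 rose and none fell (33.3% higher, all genes 12.5% higher and 16.5% lower). Besides SLC16A1 these were SLC16A12 (2.19 ± 0.53, q = 0.000795), a creatine carrier, and SLC16A13 (1.16 ± 0.40, q = 0.0296). Their levels, pooled over libraries, were 77.6, 12.6 and 66.4 per kb. Levels in DMSO alone are unknown, so the baseline behind the 39.5-fold rise of SLC16A1-001 cannot be given. The lactate carrier SLC16A7 (MCT2) had -0.54 with q = 0.222.

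Other genes that rose came from several families. The sulfate carrier SLC26A2 rose by a modest but well measured 0.72 ± 0.17 (q = 0.000329). SLC45A1 (3.05 ± 0.73, q = 0.000594) and the vesicular glutamate carrier SLC17A7 (VGLUT1; 2.44 ± 0.80, q = 0.0222) rose as well, with pooled levels of 13.1 and 5.85 per kb. SLC46A3, a lysosomal carrier, rose by 1.05 ± 0.34 (q = 0.0198) and the heme carrier SLC48A1 by 0.73 ± 0.26 (q = 0.0445). SLC2A13, a proton-coupled myo-inositol carrier, rose in isoform SLC2A13-002 (1.97 ± 0.59, q = 0.00944, 32.7% of reads), and its main isoform had -0.42 ± 0.37 (q = 0.603).

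Among the decreases, several carriers of phosphate, vitamins and inositol were found. SLC20A1 (PiT1), the sodium-coupled phosphate importer at chr2:112645939-112663825 (hg38, plus strand), was the most abundant gene of the group at 962 per kb and fell 2.37-fold (log2 fold change -1.25 ± 0.15, DESeq2 q = 1.34e-14). Its relative SLC20A2 had -0.41 ± 0.21 (q = 0.240). SLC5A6, which imports biotin and pantothenate, fell by 1.52 ± 0.27 on the log2 scale (q = 5.83e-07), and SLC19A2, a thiamine carrier, by 1.04 ± 0.22 (q = 5.49e-05). The myo-inositol carrier SLC5A3 fell by 0.65 ± 0.17 (q = 0.00236). Both listed genes of the SLC5 family, of 12 in the reference annotation, thus fell (all genes 16.5%).

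The vesicular nucleotide carrier SLC17A9 fell by 1.42 ± 0.28 on the log2 scale (q = 1.12e-05). A processed transcript of that gene fell likewise, by 1.39 ± 0.20 (q = 7.79e-10). SLC45A3 (-1.15 ± 0.35, q = 0.0108) and isoform SLC45A4-003 (-1.37 ± 0.48, q = 0.0393, 23.7% of reads) fell while SLC45A1 of the same family rose. The main isoform SLC45A4-002 had -0.83 ± 0.41 with q = 0.196. SLC10A3 fell in a minor isoform (-2.30 ± 0.77, q = 0.0271, 12.6% of reads), and the sodium bicarbonate carrier SLC4A7 by 0.63 ± 0.22 (q = 0.0399). The scaffold SLC9A3R2 (NHERF2), which is not a carrier, had the second lowest value, -2.37 ± 0.32 (q = 1.70e-11), at 575 per kb. Its relative SLC9A3R1 (NHERF1), at 955 per kb, had -0.18 ± 0.25 (q = 0.791), and SLC2A4RG, SLC4A1AP and SLC7A6OS were not called.

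SLC4A2 (AE2), the chloride-bicarbonate exchanger, was the gene with calls in both directions. SLC4A2-004, with 59.6% of the reads, fell by 1.12 ± 0.30 (q = 0.00271), and SLC4A2-002, with 2.47% of the reads, rose by 2.15 ± 0.58 (q = 0.00292). Across the 41 called genes, 18 had 1 protein-coding transcript and 23 had several. Among these 23, the transcript with the smallest p-value was the most abundant one in 14 and a less abundant one in 9. In SLC1A5 and SLC2A13 the representative transcript had the opposite sign to the called one, whereas the read-weighted mean kept the sign of the call in each of the 41.

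Several families gave no call among the genes taken here, where 29.3% of all genes were called. None of the 7 organic ion carriers of the SLC22 family passed the test, although all 7 representative values were positive, from 0.07 to 1.74 (47.9% of all genes were positive). The 5 nucleotide sugar carriers of the SLC35 family had values from 0.04 to 0.58 and none was called. None of the 5 genes of the SLC38 family or the 6 of the SLC30 family taken here, which leave out SLC30A1, had a called coding transcript. Of the 8 symbols of the SLC2 family taken here, which include SLC2A4RG that names no carrier, SLC2A13 was the 1 called. The neuronal-type glucose carrier SLC2A3 (GLUT3) had 0.71 with q = 0.0562. A q-value above the threshold does not show that these genes were unchanged.

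In the reference annotation (GENCODE release 44), 341 protein-coding symbols have the same form, and 179 of them had a row. These counts take in SLC7A11, SLC30A1 and SLC2A1 and leave out SLC9A3R1 and SLC9A3R2, which have other symbols in that release. All 5 SLC35A genes, all 3 SLC41 genes and all 3 SLC43 genes were listed, as were 38 of 49 SLC25 genes. Of 22 SLC22 genes 7 were listed, of 19 SLC6 genes 4, of 12 SLC5 genes 2, and of the SLC13, SLC18 and SLC28 families none. The lowest mean normalized read count in the table was 7.34, and genes with no row were not analysed here.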

How the data were processed

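MDA-MB-231 cells received 10 µM KH-3 or DMSO for 24 h (2 libraries each). The authors made mRNA libraries, mapped reads with STAR to transcripts of GENCODE release 24 (hg38), estimated reads per transcript with eXpress and compared conditions with DESeq2; their versions are not given in the sources used here. The deposited signal is a mean normalized read count per transcript, averaged by the authors over libraries that are not named. The deposited log2 fold change, p-value and q-value are those of the authors' DESeq2 comparison, and all values here were computed from these columns of 43596 rows. No value per library was in the table, so no count test could be run and library depth is unknown.

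An implied standard error was found by dividing each log2 fold change by the normal z that its two-sided p-value corresponds to, and intervals are 95% normal intervals. A gene was called when at least 1 protein-coding transcript had q under 0.05. The q-values are adjusted over all rows. The steps were tested on simulated data.

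Members and lists were chosen with earlier results of these data known. Named were, in each group, the 5 (8 in the group of others) called genes of smallest q-value in each direction, the 3 with the highest level, genes called in both directions, called genes of the carrier lists, the symbols that name no carrier, and 10 genes whatever their values (SLC3A2, SLC7A5, SLC1A5, SLC38A2, SLC16A1, SLC16A3, SLC25A5, SLC29A1, SLC39A10 and SLC40A1). Other genes were named after their values were seen, and 1 gene that the rule names is not reported here. Alternatives covered the threshold, a minimum fold change, transcript types and the choice of transcript. Promoters and annotation came from RefSeq GRCh38.p14 and GENCODE release 44, another release than that of the authors. The software was Python 3.11.15 with scipy 1.17.1, pandas 2.3.3 and numpy 2.4.6, and matplotlib 3.10.9 for plots.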

Additional observations from a re-analysis of the deposited data

How the results depend on the processing

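Counts of SLC genes were 20 higher and 20 lower. At a q-value under 0.01 they were 12 and 12 (all genes 8.23% and 12.1%), and under the other alternatives 15 to 24 higher and 14 to 24 lower. The 8 of 38 SLC25 genes that fell became 5 at q under 0.01, a share close to the 12.1% of all genes. They became 5 with changes no smaller than 1 on the log2 scale (all genes 9.31%). The 5 of 24 genes of the amino acid group that rose became 2 when the representative transcript alone was used (all genes 10.8%). In that setting the group's share was no longer above that of all genes. The median log2 fold change of the SLC genes moved from -0.04 to -0.17 among the 80 genes whose implied standard error did not exceed the table's median, where all genes had -0.19. Taking the transcript with the smallest p-value after a Simes p-value per gene, in place of the representative, turned SLC1A5 from -0.43 to 3.55 and SLC2A13 from -0.42 to 1.97, and SLC25A35 and SLC48A1 lost their call (Simes p from the DESeq2 p-values, Benjamini-Hochberg adjusted, 0.0515 and 0.0532). Alternatives that left out symbols naming no carrier (SLC4A1AP included), kept genes whose MANE Select transcript was listed, or centred on the median of all genes were chosen after seeing the data. No paired analysis was possible because the deposited table holds no value per library, and for the same reason no replicate could be left out.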

Other observations

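Transport genes outside the solute carriers were read by the same rule. Of 30 ABC (ATP-binding cassette) genes with a row, 9 had a protein-coding transcript that rose with KH-3 and 3 had one that fell, together 40.0% beside 29.3% of all genes. The peroxisomal fatty acid transporter ABCD2 rose by a log2 fold change of 4.19 ± 0.71 (q = 2.21e-07). The cholesterol exporter ABCA1 rose by 1.86 ± 0.39 (q = 4.37e-05) and the conjugate exporter ABCC2 (MRP2) by 2.23 ± 0.57 (q = 0.00162). ABCB10, of the inner mitochondrial membrane, fell by 1.87 ± 0.21 on the log2 scale (q = 5.71e-17). The others that fell, ABCE1 and ABCF2, belong to branches of the family that act in translation and not in transport. None of 6 SLCO organic anion transporters was called.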
